A study of Mus musculus with 12 samples.

Results

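Mitochondrial fatty acid beta-oxidation and the tricarboxylic acid (TCA) cycle were described through 33 genes in cultured mouse adipocytes. The genes encode the acyl-CoA dehydrogenases, the later beta-oxidation enzymes, the electron transfer flavoprotein system, the TCA cycle enzymes, the enzymes that bring pyruvate to the cycle, and 2 kinases of the pyruvate dehydrogenase complex. They were taken by symbol from the 24888 entries of each library. All 33 symbols stood at 1 locus, and all 33 passed the filter on low values in both fits. The members were not chosen by a measured value of these libraries, although earlier results of the same data were known when the list was made.

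RNA was sequenced in 12 libraries, 2 in each of 6 groups. Beige adipocytes were grown with rosiglitazone, an agonist of the nuclear receptor PPARγ, from inguinal white adipose tissue (WAT) preadipocytes of the C57BL/6 background, either ATF7KO or WT. White adipocytes came from the same kind of preadipocytes, ATF7KO or WT, without rosiglitazone. The third pair of groups was made from C3H10t1/2, a mouse mesenchymal cell line that can be turned into adipocytes, either ATF7-Overexpressing or Control, and both with rosiglitazone. Every beige group therefore carried rosiglitazone and neither white group did. ATF7 is a transcription factor of the ATF2 family, which binds the cyclic AMP response element. The labels describe neither the knockout allele nor the overexpression construct, and do not state whether the replicates were separate cultures or animals. P-values therefore measure only the spread between these libraries, which may be technical.

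Expression was given in FPKM, a fragment count scaled by transcript length and by library size, so levels can be compared between genes. Each library had between 9844 and 10877 entries at 1 FPKM or more, and its summed FPKM lay between 225536 and 272371. Counts were not given, so the depth behind each value is unknown. Replicates correlated across entries with Pearson's r between 0.969 and 0.986. Atf7 had 7.26 and 7.94 FPKM in KO-labelled beige, against 7.80 and 7.83 FPKM in WT beige. It stood at 6.88 and 7.73 FPKM in KO-labelled white, against 9.10 and 7.10 FPKM in WT white. A level over the whole gene does not check a deletion of part of it, so the libraries are called KO-labelled here and each direction drawn from them rests on the label. In C3H10t1/2, Atf7 was at 41.2 and 39.1 FPKM in the overexpressing libraries and at 8.52 and 9.09 FPKM in control.

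Beta-oxidation removes acetyl-CoA from fatty acyl-CoA in repeated rounds of dehydrogenation, hydration, a further dehydrogenation and thiolysis. Electrons from its initial step reach the respiratory chain through the electron transfer flavoprotein, and the acetyl-CoA enters the TCA cycle, which passes further electrons on. In brown and beige adipocytes this flux feeds heat production by uncoupling protein 1, whereas white adipocytes chiefly store triglyceride.

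Promoters were read because ATF7 belongs to a family that binds DNA. The RefSeq table for GRCm38.p6, which gives 250 bases before and 50 bases after each gene's start, held 30 of the 33 members. The palindromic cyclic AMP response element TGACGTCA was found in the windows of Ogdh and Mdh2, which is 6.67% of the 30 members, against 2.03% of 27025 genes. Ogdh encodes the E1 subunit of 2-oxoglutarate dehydrogenase and Mdh2 the mitochondrial malate dehydrogenase. The table lists 6 windows for Ogdh, from different starts, and 3 of them hold the element, between 51 and 113 bases before their start, while the other 3 do not. Mdh2 has 1 window, in which the element begins 127 bases before the start. A gene was counted once if any of its windows held a motif. Stretches around it are shown on the strand of the gene, with the element in capitals, at chr11:6291521-6291578 for Ogdh and chr5:135778497-135778554 for Mdh2, both on the plus strand.
Ogdh: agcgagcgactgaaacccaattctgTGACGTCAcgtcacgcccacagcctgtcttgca
Mdh2: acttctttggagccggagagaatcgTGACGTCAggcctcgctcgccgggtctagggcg

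A further 4 motifs of factors that act on nuclear genes for mitochondrial proteins were searched on both strands. The NRF1 motif was found in the window of Etfdh alone among the members, which is 3.33% of them, against 1.07% of all genes. It is palindromic, begins 128 bases before the start and is in capitals in the stretch at chr3:79628861-79628920, on the minus strand. The ETS motif CCGGAAGT was found in Dlst alone, 3.33% of members against 4.31% of all genes. The estrogen-related receptor motif TCAAGGTCA was in 0 of 30 members and 0.466% of all genes, and the DR1 motif, a direct repeat of AGGTCA with 1 base between, in 0 of 30 members and 0.0481% of all genes. The last 2 share the letters AGGTCA, and no member's window held more than 1 of the 5 motifs. These matches describe letters in a window of 300 bases and were not tested as sites.
Etfdh: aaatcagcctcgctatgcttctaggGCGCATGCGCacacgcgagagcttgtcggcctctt

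Hadha and Hadhb encode the 2 subunits of the mitochondrial trifunctional protein and stand head to head on chromosome 5. Hadha lies at chr5:30118304-30154980 on the minus strand and Hadhb at chr5:30155253-30184593 on the plus strand, with 272 bases between their starts. The 250 bases just before Hadhb, chr5:30155003-30155252 on the plus strand, lie within that interval and are shown because both genes start from it. They hold none of the 5 motifs.
Hadhb: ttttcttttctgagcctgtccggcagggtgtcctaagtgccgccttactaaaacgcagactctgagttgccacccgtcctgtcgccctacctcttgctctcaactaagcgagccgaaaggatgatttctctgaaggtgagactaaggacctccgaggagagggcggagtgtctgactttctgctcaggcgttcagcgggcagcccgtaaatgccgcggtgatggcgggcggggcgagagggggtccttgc

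The 33 members together took 1.83% and 1.94% of the summed FPKM in KO-labelled beige, and 1.66% and 1.69% in WT beige. In KO-labelled white they took 0.565% and 0.551%, and in WT white 0.57% and 0.61%. The overexpressing C3H10t1/2 libraries had 1.68% and 1.81%, against 2.08% and 2.12% in control. Every beige library was above every white library in this share. The members ranged widely in level within a group. Cs, which encodes citrate synthase, the entry enzyme of the cycle, had the highest group mean in all 4 beige groups, at 405 FPKM in KO-labelled beige, 340.1 FPKM in WT beige, 386 FPKM in overexpressing C3H10t1/2 and 430.5 FPKM in control. In both white groups the highest was Pcx, which encodes pyruvate carboxylase, at 137 FPKM in KO-labelled and 138 FPKM in WT. The mean of Cs in WT white, 132 FPKM, came from libraries at 122 and 143 FPKM and so did not differ from that of Pcx beyond its spread. Suclg2, which encodes the GDP-forming beta subunit of succinyl-CoA ligase, was lowest in 5 of the 6 groups. In KO-labelled white the lowest was Pdk4 at 5.18 FPKM, next to Suclg2 at 5.83 FPKM, and their libraries overlapped.

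The comparison of beige with white cultures asks how these genes stand in cells differentiated with rosiglitazone and without it. In WT cultures, 31 of the 33 members rose and 0 fell (limma on log2(FPKM + 1), adjusted p under 0.05). Of all 11294 entries tested, 53.7% were called, 21.6% higher and 32.1% lower. The median difference of the members was 1.56 on the log2 scale, against -0.0979 over all entries. Among the 33 members, 32 had both WT beige libraries above both WT white libraries, against 31.3% of all entries, and 0 had them below, against 46.2%. A log2 difference above 0 was seen in 32 members and 42.0% of all entries. In KO-labelled cultures, 31 members rose and 1 fell, with 61.0% of all entries called, 26.6% higher and 34.3% lower, and a median of 1.85 over the members against -0.0622 over all entries. There the beige libraries stood above the white ones without overlap for 32 members, against 36.2% of all entries, and below for 1, against 44.7%. A difference above 0 was seen in 32 members and 45.9% of all entries. The WT and the KO-labelled comparison share no library. The bulk RNA cannot tell fewer cells of a type from less RNA per cell.

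The direction of the calls over all genes moved with the scaling, while 31 or 32 members rose under every setting that kept all libraries. At most 1 member fell, and whether it did depended on the scaling in both genotypes. In WT cultures 40.2% of all calls were higher, and this became 50.9% under quantile normalization, 27.7% once small RNA genes were dropped and 51.4% under median centring. In KO-labelled cultures the share was 43.7%, against 52.8% under each of quantile normalization and median centring and 29.2% once small RNA genes were dropped. The median over all entries in WT cultures moved to 0.0171 under quantile normalization, 0.0109 under median centring and -0.233 once small RNA genes were dropped. The members' median stayed at or above 1.29 in WT cultures and 1.53 in KO-labelled cultures under all 8 settings other than leaving out a library.

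The cultures also differed in markers of cell types. The summed FPKM of 13 macrophage markers was 28.54 and 28.78 in WT beige, against 586.9 and 525.3 in WT white, and all 13 fell. In KO-labelled cultures it was 32.58 and 27.02 in beige, against 778.1 and 826.2 in white. Aif1 was the macrophage marker listed at 0 in a WT beige library. The sum of 10 preadipocyte and stromal markers was 703.1 and 727 in WT beige, against 3477 and 4497 in WT white, and the 9 tested all fell. In KO-labelled cultures that sum was 566.6 and 830.8 in beige, against 3681 and 3915 in white. The sum of 10 adipocyte markers was 12513 and 11942 in WT beige, against 4487 and 5097 in WT white, and 7 of the 10 rose. In KO-labelled cultures it was 11648 and 13128 in beige, against 3480.0 and 3511 in white. Sums of 7 endothelial markers stayed at or under 4.628 FPKM and of 7 skeletal muscle markers at or under 3.299 FPKM in every library. Rosiglitazone and the make-up of the cultures cannot be told apart in this design. Ucp1, the uncoupling protein, stood at 51.6 and 24.5 FPKM in KO-labelled beige, at 19.1 and 17.2 FPKM in WT beige, and was listed at 0 in all 4 white libraries.

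The 4 acyl-CoA dehydrogenases, which catalyse the initial step for very long (Acadvl), long (Acadl), medium (Acadm) and short (Acads) chains, all rose in both genotypes. Acadvl was at 186 and 181 FPKM in WT beige, against 27.0 and 32.8 FPKM in WT white. That is 6.15 times the mean, with a log2 difference of 2.59 (SE 0.13, adjusted p = 1.25e-06). In KO-labelled cultures Acadvl had beige levels of 197 and 234 FPKM, against white levels of 32.0 and 33.8 FPKM, a log2 difference of 2.67 (SE 0.13, adjusted p = 6.91e-07). Beige and white libraries of Acadvl lay far apart in both genotypes. Acadm was at 178 and 187 FPKM in WT beige, against 43.7 and 57.4 FPKM in WT white, a log2 difference of 1.84. In KO-labelled cultures Acadm had beige levels of 212 and 259 FPKM, against white levels of 37.3 and 42.3 FPKM, a log2 difference of 2.53 (SE 0.15, adjusted p = 2.08e-06). The WT log2 difference was 1.56 for Acadl and 1.27 for Acads, the smallest of the 4.

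The steps after the dehydrogenases held the largest differences among the beta-oxidation enzymes. Acaa2, which encodes the mitochondrial 3-ketoacyl-CoA thiolase that releases acetyl-CoA, was at 221 and 222 FPKM in WT beige, against 23.2 and 26.0 FPKM in WT white. Its WT beige mean was 9.02 times the white mean, with a log2 difference of 3.12 (SE 0.14, adjusted p = 8.96e-07). In KO-labelled cultures Acaa2 had beige levels of 253 and 338 FPKM, against white levels of 26.7 and 27.7 FPKM, a log2 difference of 3.38 (SE 0.14, adjusted p = 3.76e-07). The lowest beige library of Acaa2 thus stood several-fold above the highest white library. Hadhb, the thiolase subunit of the trifunctional protein, was at 91.0 and 101 FPKM in WT beige, against 12.8 and 11.4 FPKM in WT white, a log2 difference of 2.89 (SE 0.13, adjusted p = 8.17e-07). In KO-labelled cultures Hadhb had beige levels of 126 and 127 FPKM, against white levels of 10.6 and 13.4 FPKM, a log2 difference of 3.30 (SE 0.13, adjusted p = 2.81e-07).

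Hadha, the subunit with the hydratase and long-chain hydroxyacyl-CoA dehydrogenase activities, moved less than its partner. It was at 164 and 165 FPKM in WT beige, against 31.7 and 31.1 FPKM in WT white, a log2 difference of 2.35 (SE 0.10, adjusted p = 7.94e-07). In KO-labelled cultures Hadha had beige levels of 187 and 213 FPKM, against white levels of 33.2 and 33.7 FPKM, a log2 difference of 2.54 (SE 0.10, adjusted p = 3e-07). The ratio of Hadha to Hadhb was 1.80 and 1.63 in WT beige, against 2.48 and 2.73 in WT white, and 1.49 and 1.68 in KO-labelled beige, against 3.14 and 2.51 in KO-labelled white. It was lower in all 4 beige libraries of primary cells than in all 4 white ones, and this ratio has no test of its own. Hadh, which handles medium and short hydroxyacyl chains, rose by a log2 difference of 1.65 in WT cultures and 1.73 in KO-labelled cultures.

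The auxiliary enzymes for unsaturated chains also rose in both genotypes. Eci1, an enoyl-CoA isomerase, was at 99.5 and 92.9 FPKM in WT beige, against 22.3 and 27.9 FPKM in WT white. Decr1, the dienoyl-CoA reductase, was at 67.5 and 68.6 FPKM in WT beige, against 20.2 and 25.4 FPKM in WT white. Their log2 differences in WT cultures were 1.90 and 1.55. The electron transfer flavoprotein genes Etfa and Etfb, and Etfdh for the oxidoreductase that hands their electrons to ubiquinone, rose by 1.89, 1.53 and 1.79 on the log2 scale in WT cultures, and by 2.52, 1.91 and 1.99 in KO-labelled cultures. Etfa was at 142 and 149 FPKM in WT beige, against 33.8 and 43.8 FPKM in WT white. The ratio of Etfb to Etfa, whose products form a heterodimer, was 1.35 and 1.28 in WT beige, against 1.71 and 1.70 in WT white.

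Of the 14 TCA cycle members, 13 rose in WT cultures and 13 in KO-labelled cultures, with medians of 1.39 and 1.71 on the log2 scale. Suclg2 was the exception in both. Cs was at 337 and 343 FPKM in WT beige, against 122 and 143 FPKM in WT white. Idh3a, the catalytic subunit of NAD-dependent isocitrate dehydrogenase, had the largest difference of the cycle members. It was at 166 and 168 FPKM in WT beige, against 38.4 and 43.4 FPKM in WT white, a log2 difference of 2.01 (SE 0.11, adjusted p = 1.85e-06). The other subunit genes Idh3b and Idh3g rose by 1.87 and 1.45, and Idh2, for the NADP-dependent mitochondrial enzyme, rose less than any of them, with 34.4 and 35.7 FPKM in WT beige against 15.6 and 18.5 FPKM in WT white. The ratio of Idh3a to Idh2 was 4.83 and 4.71 in WT beige, against 2.47 and 2.35 in WT white. The ratio of Idh3a to Idh3g was 1.58 and 1.62 in WT beige, against 1.10 and 1.07 in WT white, and this last pair was chosen after its values were seen.

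The 2-oxoglutarate dehydrogenase genes stood close together. Ogdh (E1), Dlst (E2) and Dld (E3, shared with pyruvate dehydrogenase) rose by 1.28, 1.42 and 1.27 on the log2 scale in WT cultures. Fh1, for fumarase, rose by 1.07. Mdh2 was at 291 and 272 FPKM in WT beige, against 84.5 and 95.6 FPKM in WT white, a log2 difference of 1.64 (SE 0.12, adjusted p = 9.79e-06). Mdh1, the cytosolic malate dehydrogenase of the malate-aspartate shuttle, was at 171 and 158 FPKM in WT beige, against 87.3 and 114 FPKM in WT white, and its log2 difference of 0.72 was the smallest of the members that rose (SE 0.14, adjusted p = 0.00218). The ratio of Mdh2 to Mdh1 was 1.71 and 1.72 in WT beige, against 0.968 and 0.839 in WT white. In KO-labelled cultures it was 1.86 and 2.15 in beige, against 0.999 and 1.13 in white.

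Succinyl-CoA ligase pairs a shared alpha subunit, Suclg1, with either an ADP-forming beta subunit, Sucla2, or a GDP-forming one, Suclg2. Sucla2 was at 92.1 and 93.9 FPKM in WT beige, against 27.3 and 39.0 FPKM in WT white, a log2 difference of 1.48 (SE 0.16, adjusted p = 8.77e-05). Suclg2, at chr6:95473009-95718846, was at 6.62 and 6.98 FPKM in WT beige, against 5.74 and 5.37 FPKM in WT white. Its libraries did not overlap, but the log2 difference of 0.25 did not pass the test (SE 0.10, adjusted p = 0.0525). In KO-labelled cultures Suclg2 had beige levels of 6.89 and 6.84 FPKM, against white levels of 6.21 and 5.45 FPKM, a log2 difference of 0.21 (SE 0.10, adjusted p = 0.0923). The call on Suclg2 turned on the processing, and it passed in WT cultures under quantile normalization (adjusted p = 0.0186) and median centring (adjusted p = 0.0144). Suclg2 also passed in WT cultures in a fit of all 12 libraries, and in KO-labelled cultures under quantile normalization and median centring. The ratio of Sucla2 to Suclg2 was 16.6 and 20.4 in KO-labelled beige and 13.9 and 13.5 in WT beige, against 4.66 and 5.28 in KO-labelled white and 4.76 and 7.26 in WT white. Suclg1 rose by 1.56 in WT cultures.

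At the entry of pyruvate the genes split. The pyruvate dehydrogenase genes Pdha1 and Pdhb (E1) and Dlat (E2), which turn pyruvate into acetyl-CoA, rose by 1.09, 1.62 and 1.35 on the log2 scale in WT cultures. Pcx, at chr19:4510472-4621752, which turns pyruvate into oxaloacetate, was at 142 and 134 FPKM in WT beige, against 136 and 139.6 FPKM in WT white. Those libraries overlap, and the log2 difference was -0.00 (SE 0.10, adjusted p = 0.99). It became -0.40 under quantile normalization (adjusted p = 0.00268) and 0.11 under median centring (adjusted p = 0.3). In KO-labelled cultures Pcx had beige levels of 111 and 117 FPKM, against white levels of 134 and 141 FPKM, and fell by 0.26 on the log2 scale (SE 0.10, adjusted p = 0.0448). This call was lost under median centring (adjusted p = 0.133) and without either KO-labelled white library (adjusted p = 0.103 and 0.217). It was also lost without KO-labelled beige replicate 1 (adjusted p = 0.114) and without WT beige replicate 1 or 2 (adjusted p = 0.0866 and 0.0865).

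The kinases Pdk2 and Pdk4 phosphorylate the E1 subunit and switch the pyruvate dehydrogenase complex off. Both rose, as did the subunits of the complex they act on. Pdk4, at chr6:5483351-5496278, was at 57.3 and 59.2 FPKM in WT beige, against 5.54 and 6.79 FPKM in WT white. Its WT beige mean was 9.45 times the white mean, with a log2 difference of 3.05 (SE 0.11, adjusted p = 3.8e-07). In KO-labelled cultures Pdk4 had beige levels of 73.2 and 69.7 FPKM, against white levels of 4.88 and 5.48 FPKM, a log2 difference of 3.55 (SE 0.11, adjusted p = 1.39e-07) and the largest of any member there. Pdk2 was at 32.9 and 36.7 FPKM in WT beige, against 6.77 and 6.22 FPKM in WT white, a log2 difference of 2.26 (SE 0.10, adjusted p = 9.51e-07). In KO-labelled cultures Pdk2 rose by 2.04. The ratio of Pdk4 to Pdk2 was 2.18 and 1.82 in KO-labelled beige and 1.74 and 1.61 in WT beige, against 0.615 and 0.693 in KO-labelled white and 0.817 and 1.09 in WT white.

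**Figure D1:**
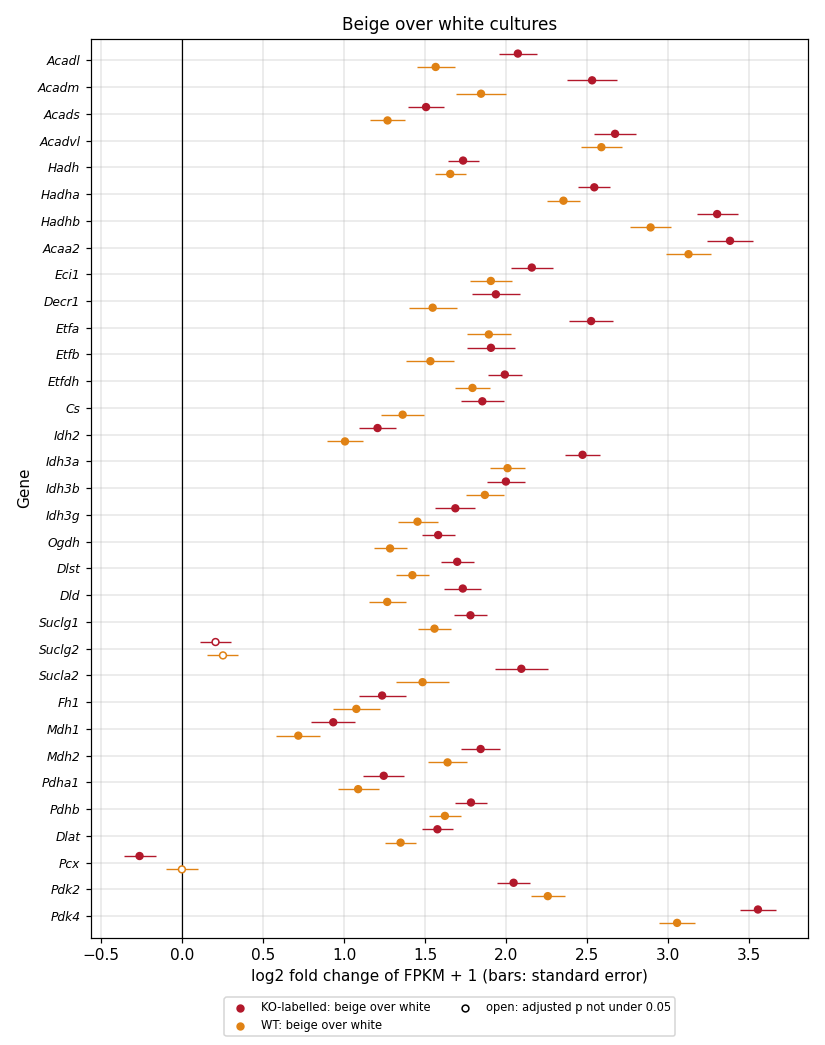
Log2 difference of FPKM + 1, beige over white (x axis), for each member (rows), in KO-labelled and WT cultures, with bars of 1 standard error and open points where the adjusted p is not under 0.05. Acaa2, Hadhb and Pdk4 lie farthest to the right in both genotypes, and Suclg2 and Pcx lie near 0.

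Genes beside the members moved in a more mixed way. Of 23 other fatty acid oxidation genes, 17 rose and 2 fell in WT cultures, with a median of 0.78 on the log2 scale. In KO-labelled cultures 19 rose and 2 fell. Of all entries tested, 21.6% were called higher and 32.1% lower in WT cultures, and 26.6% and 34.3% in KO-labelled cultures. Cpt1b, the muscle-type carnitine palmitoyltransferase that commits acyl chains to import, was at 73.8 and 74.4 FPKM in WT beige, against 0.674 and 0.79 FPKM in WT white, a log2 difference of 5.44 (SE 0.13, adjusted p = 4.54e-08). The 2 that fell in WT cultures were Cpt1a, the liver-type enzyme of the same step, by 1.11, and Oxct1, which activates ketone bodies, by 0.77. Cpt1a was at 4.41 and 5.01 FPKM in WT beige, against 11.3 and 11.3 FPKM in WT white, so the 2 import enzymes stood in opposite order in the 2 kinds of culture. Slc25a20, the carnitine-acylcarnitine carrier, rose by 2.00, the thioesterase gene Acot13 by 1.92 and the isomerase gene Ech1 by 1.73.

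Of 29 other TCA cycle and pyruvate genes, 26 were tested, and 15 rose and 5 fell in WT cultures. In KO-labelled cultures 16 rose and 6 fell. For these and the regulators below, the shares of all entries were 21.6% higher and 32.1% lower in WT cultures. They were 26.6% and 34.3% in KO-labelled cultures. Among those that rose in WT cultures, the succinate dehydrogenase genes Sdhd and Sdha rose by 1.55 and 1.38, and Got1, the cytosolic aspartate aminotransferase, by 1.85. The 5 that fell were Pdk3, Pdp1, Me1, Slc25a10 and Slc25a12. Pdk3 is a further kinase of pyruvate dehydrogenase and Pdp1 a phosphatase that reverses such kinases, and their log2 differences were -0.51 and -1.16. Of 14 regulators of oxidative genes, 13 were tested, and 10 rose and 0 fell in each genotype. Ppara, a nuclear receptor that drives fatty acid oxidation genes, was at 23.9 and 23.4 FPKM in WT beige, against 0.85 and 0.972 FPKM in WT white, a log2 difference of 3.69 (SE 0.10, adjusted p = 1.71e-07). The coactivator genes Ppargc1b and Ppargc1a rose by 2.08 and 1.67, and Esrra, for the estrogen-related receptor alpha, by 1.52.

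Setting KO-labelled beside WT beige cultures asks whether these genes depend on ATF7. No member was called, and 0.151% of all entries were, which is 17 of 11294, with 0.0531% higher and 0.0974% lower. At an unadjusted p under 0.05 there were 13 members of 33 and 1160 entries of 11294. The members nonetheless lay mostly on the same side of 0, since 31 of 33 had a log2 difference above 0, against 60.9% of all entries. Both KO-labelled libraries stood above both WT libraries for 27 members, against 27.1% of all entries, and below them for 1 member, Pcx, against 14.1%. The median over members was 0.23 on the log2 scale, against 0.0414 over all entries. Under quantile normalization 28 members stood above 0 and their median was 0.17, against 0.0065 over all entries. Once small RNA genes were dropped, 29 stood above 0 and their median was 0.18, against 0.0014.

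The members with the lowest p in this comparison were Hadhb, Dlst, Ogdh and Etfa. Hadhb was at 126 and 127 FPKM in KO-labelled beige, against 91.0 and 101 FPKM in WT beige, a log2 difference of 0.39 (SE 0.13, adjusted p = 0.366). Dlst was at 103 and 116 FPKM in KO-labelled beige, against 87.1 and 91.2 FPKM in WT beige, a log2 difference of 0.30 (SE 0.10, adjusted p = 0.4). Ogdh was at 65.5 and 74.3 FPKM in KO-labelled beige, against 56.7 and 56.9 FPKM in WT beige, a log2 difference of 0.29 (SE 0.10, adjusted p = 0.407). In each of these 3 the groups did not overlap, yet the difference did not pass the test. Etfa was at 177 and 204 FPKM in KO-labelled beige, against 142 and 149 FPKM in WT beige, with adjusted p = 0.41. Sucla2, at 115 and 139 FPKM in KO-labelled beige against 92.1 and 93.9 FPKM in WT beige, had the largest log2 difference of the members, 0.44 (SE 0.16, adjusted p = 0.424). Pcx lay on the other side, with a log2 difference of -0.27 (SE 0.10, adjusted p = 0.422), and Mdh1 was the only other member below 0, at -0.06.

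By role, all 4 acyl-CoA dehydrogenases, all 4 later beta-oxidation enzymes, both auxiliary enzymes and all 3 electron transfer flavoprotein genes had both KO-labelled beige libraries above both WT beige libraries. So did 10 of the 14 TCA cycle genes and 27.1% of all entries tested, and 0 members were called. KO-labelled beige replicate 2 was above replicate 1 for 31 of the 33 members, and for 7143 of 10597 entries with a mean of at least 1 FPKM. Without replicate 2 the members' median was 0.12 and 30 stood above 0. Without replicate 1 the median was 0.34 and 31 stood above 0. Of the other lists, 0 genes were called in this comparison. Ppara had a log2 difference of 0.41 (SE 0.10, adjusted p = 0.255) and Slc25a10 of -0.57 (SE 0.10, adjusted p = 0.119). Among other fatty acid oxidation genes 20 were above 0 and 3 below, with a median of 0.15. Among other TCA cycle and pyruvate genes 17 were above 0 and 9 below, with a median of 0.0251. Regulators had 8 above and 5 below, with a median of 0.12. Over all entries the median was 0.0414, with 60.9% above 0. All 7 tested of 8 beige and brown adipocyte markers were above 0 with 0 called, and their sum was 1026 and 1063 FPKM in KO-labelled beige, against 836.5 and 793.7 FPKM in WT beige. The 10 adipocyte markers had 5 above 0 and 5 below, with a median of -0.0014 on the log2 scale. Of 9 tested preadipocyte and stromal markers 3 were above 0 and 6 below, with a median of -0.17 and 0 called. Below without overlap were 3 of these 9, against 14.1% of all entries. The 13 macrophage markers had 9 above 0 and 4 below, with a median of 0.05 and 0 called. The part of these marker lists in the members' values was not tested.

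In white cultures no member was called between KO-labelled and WT libraries either, with 1.89% of all entries called, 1.27% higher and 0.620% lower. Higher calls were 67.1% of these 213 calls, but 32% of 25 without KO-labelled white replicate 1 and 30.4% of 23 without replicate 2. At 13 above 0 and 20 below, against 55.6% of all entries above 0, the members showed no common side. The KO-labelled libraries were above the WT ones without overlap for 5 members, against 32.1% of all entries, and below for 9, against 21.2%. Their median was -0.02 on the log2 scale, against 0.0289 over all entries. The smallest adjusted p belonged to Idh3a. It was at 31.3 and 32.1 FPKM in KO-labelled white, against 38.4 and 43.4 FPKM in WT white, a log2 difference of -0.36 (SE 0.11, adjusted p = 0.124). It passed under quantile normalization (adjusted p = 0.0472) and in a fit of all 12 libraries (adjusted p = 0.0445). Pdk2 was at 7.94 and 7.90 FPKM in KO-labelled white, against 6.77 and 6.22 FPKM in WT white, a log2 difference of 0.25 (SE 0.10, adjusted p = 0.226). Acadl and Acadm had log2 differences of -0.26 (adjusted p = 0.266) and -0.33 (adjusted p = 0.28).

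WT white replicate 2 was above replicate 1 for 28 of the 33 members, and without it 22 members stood above 0 with a median of 0.05, against 10 and -0.12 without replicate 1. The order of these replicates was not counted over all entries, and replicate 2 also had the larger summed FPKM, 243245 against 225536. Markers moved in the same comparison. All 13 macrophage markers were above 0 and 5 rose, with sums of 778.1 and 826.2 FPKM in KO-labelled white, against 586.9 and 525.3 FPKM in WT white. All 10 adipocyte markers were below 0, and Cidec and Cd36 fell by 0.73 and 0.67. The sum of the adipocyte markers was 3480.0 and 3511 FPKM in KO-labelled white, against 4487 and 5097 FPKM in WT white. The part of either marker list in the members' values was not tested. Among the genes of the other pathway lists 0 were called, and Oxct1 had the lowest p of the fatty acid oxidation genes, at -0.36 (SE 0.10, adjusted p = 0.112). Of these 23 genes 20 were below 0, with a median of -0.14. For 15 of them the KO-labelled libraries were below without overlap, against 21.2% of all entries. The 26 tested other TCA cycle and pyruvate genes had 13 above 0 and 13 below, and the 13 tested regulators 7 and 6.

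The interaction asks whether the difference between beige and white cultures depended on the genotype label. It was above 0, a larger beige difference in KO-labelled cultures, for 30 of 33 members, against 51.3% of all entries. The members' median was 0.23 on the log2 scale, against 0.0097 over all entries. This median moved with single libraries. It was 0.14 without KO-labelled beige replicate 2 and 0.33 without replicate 1. Without WT white replicate 2 it was 0.16, and without replicate 1 it was 0.33. No member was called, with 0.292% of all entries called. Etfa had an interaction of 0.63 (SE 0.19, adjusted p = 0.193), Pdk4 of 0.50 (SE 0.16, adjusted p = 0.202), Acadm of 0.69 (SE 0.22, adjusted p = 0.204) and Idh3a of 0.46 (SE 0.15, adjusted p = 0.211). Both the beige and the white values of Etfa entered this, since its level in KO-labelled white was 32.9 and 31.7 FPKM, against 33.8 and 43.8 FPKM in WT white. Pdk2, Pcx and Suclg2 were the 3 members below 0. Markers moved in this contrast too, with all 10 adipocyte markers above 0 (median 0.25, 0 called), all 13 macrophage markers below 0 (median -0.68, 0 called) and 8 of 9 tested stromal markers below 0 (median -0.27, 0 called). All 7 tested beige and brown adipocyte markers were above 0, and Cox8b, a cytochrome c oxidase subunit gene, was called. The part of these lists in the members' values was not tested.

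In C3H10t1/2 beige adipocytes, ATF7 overexpression was set against control. Of the 33 members 5 fell and 0 rose, with 1.49% of all 9981 entries called and 1.06% called lower and 0.431% higher. The 5 were Acaa2, Hadhb and Hadh of beta-oxidation, Etfa, and Pdk4. In all, 31 members had a log2 difference below 0 and 2 above, against 44.3% of all entries above. Both overexpressing libraries were below both control libraries for 30 members, against 28.8% of all entries. They were above both for 1 member, Pcx, against 20.3% of all entries. The median over members was -0.23 on the log2 scale, against -0.0201 over all entries. At an unadjusted p under 0.05 there were 26 members of 33 and 1715 entries of 9981.

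Acaa2 was at 192 and 203 FPKM in the overexpressing libraries, against 320.5 and 302 FPKM in control. It fell to 0.635 times the control mean, with a log2 difference of -0.65 (SE 0.07, adjusted p = 0.0155). Hadhb was at 114 and 109 FPKM in the overexpressing libraries, against 159 and 168 FPKM in control, a log2 difference of -0.54 (SE 0.07, adjusted p = 0.0239). These thiolase genes were also among the 3 members with the largest difference between beige and white cultures. Pdk4 was at 54.3 and 52.9 FPKM in the overexpressing libraries, against 76.8 and 77.1 FPKM in control, a log2 difference of -0.51 (SE 0.06, adjusted p = 0.0182). Hadh was at 96.7 and 100.4 FPKM in the overexpressing libraries, against 140.2 and 134 FPKM in control, a log2 difference of -0.47 (SE 0.07, adjusted p = 0.0309). The fifth was Etfa, at 142 and 150.0 FPKM in the overexpressing libraries, against 203 and 195 FPKM in control, a log2 difference of -0.45 (SE 0.07, adjusted p = 0.0388). In none of the 5 did the groups overlap.

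With 4 libraries and 2 residual degrees of freedom these calls were fragile. The count was 0 without overexpressing replicate 1, without overexpressing replicate 2 and without control replicate 1, and 1 without control replicate 2, in which case Acaa2 passed. It was 0 with no filter on low values and 3 in a fit of all 12 libraries. The number below 0 stayed between 30 and 32 of 33 over all these settings and the other scalings. Of the 28 members not called, Hadha was nearest to the threshold, at 192 and 185 FPKM in the overexpressing libraries, against 238 and 244 FPKM in control (log2 difference -0.35, adjusted p = 0.0663). All 4 acyl-CoA dehydrogenases were below 0, between -0.24 and -0.33, with the lowest adjusted p at 0.0767 for Acadvl. Among the TCA cycle genes 0 were called and 13 of 14 lay below 0, with a median of -0.22. Cs was at 394 and 378 FPKM in the overexpressing libraries, against 429.7 and 431 FPKM in control (adjusted p = 0.306).

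**Figure D2:**
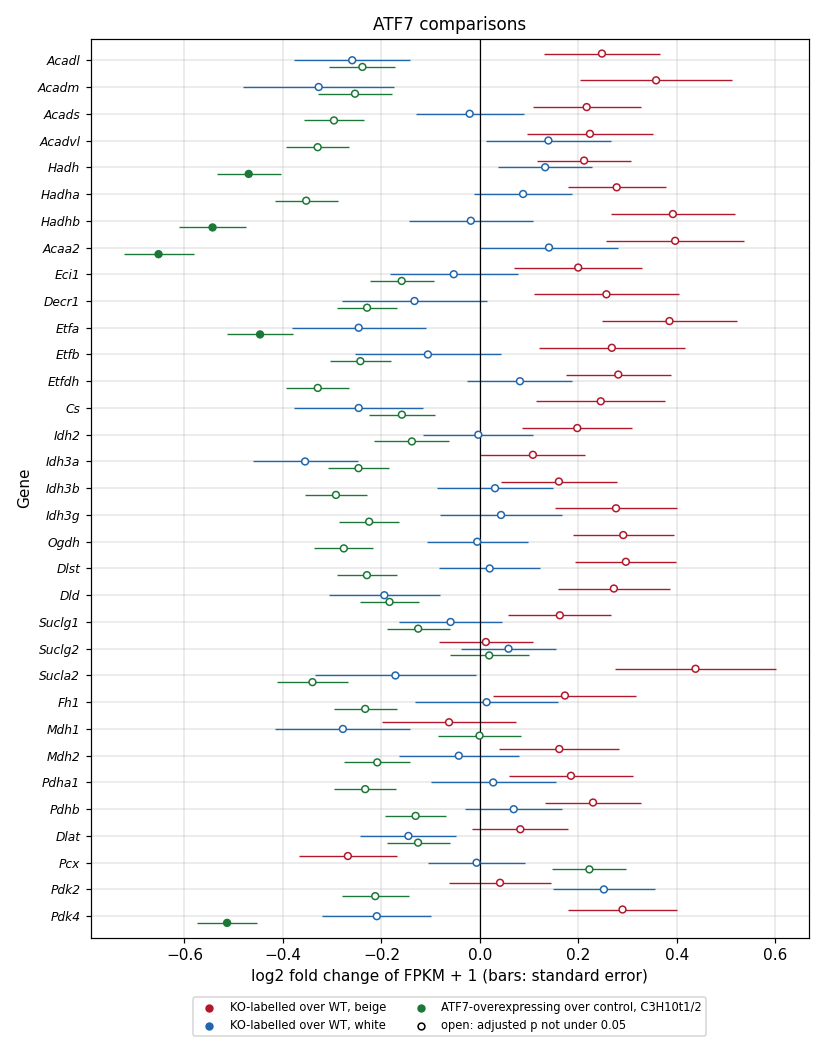
Log2 difference of FPKM + 1 (x axis) for each member (rows) in KO-labelled over WT beige, KO-labelled over WT white and overexpressing over control C3H10t1/2, with bars of 1 standard error and filled points where the adjusted p is under 0.05. The beige KO-labelled points lie mostly right of 0, the overexpression points mostly left of it, with Pcx on the other side in both, and the white points fall on both sides.

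The 4 pyruvate entry genes lay on both sides of 0 in this comparison, and 0 of them were called. Pcx was at 344 and 322 FPKM in the overexpressing libraries, against 275 and 295 FPKM in control, a log2 difference of 0.22 that did not pass (SE 0.08, adjusted p = 0.212). Pdha1, Pdhb and Dlat had log2 differences of -0.23, -0.13 and -0.13, none called. Sucla2 was at 78.8 and 72.1 FPKM in the overexpressing libraries, against 98.1 and 93.4 FPKM in control, while Suclg2 overlapped at 9.28 and 8.30 FPKM against 8.86 and 8.44 FPKM. The ratio of Sucla2 to Suclg2 was 8.50 and 8.69 in the overexpressing libraries, against 11.1 and 11.1 in control. The ratio of Pdk4 to Pdk2 was 1.83 and 1.76 in the overexpressing libraries, against 2.29 and 2.13 in control.

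Outside the members, 1 of 23 other fatty acid oxidation genes fell, Cpt1b, at 28.0 and 28.4 FPKM in the overexpressing libraries, against 90.9 and 76.7 FPKM in control (log2 difference -1.53, SE 0.09, adjusted p = 0.00193). Of the 26 other TCA cycle and pyruvate genes tested 0 were called, the nearest being Pdhx at -0.37 (adjusted p = 0.0563). Of the 11 regulators tested 2 fell, Ppara by 0.61 (adjusted p = 0.0176) and Esrra by 0.59 (adjusted p = 0.0179). Ppara was at 15.9 and 14.7 FPKM in the overexpressing libraries, against 23.7 and 23.9 FPKM in control. Of the 8 beige and brown adipocyte markers 5 were tested, and Ucp1, Cidea and Elovl3 fell. Over all 9981 entries, 1.06% were called lower and 0.431% higher. The calls in these lists rest on the same 4 libraries and 2 residual degrees of freedom as those of the members. Ucp1 was at 1.08 and 0.82 FPKM in the overexpressing libraries, against 8.71 and 6.82 FPKM in control. Among the markers under the filter, Ppargc1a had 0.303 and 0.297 FPKM in the overexpressing libraries, against 0.167 and 0.204 FPKM in control. Prdm16 had 0.768 and 0.647 FPKM in the overexpressing libraries, against 0.46 and 0.483 FPKM in control, so both were higher without overlap and were not tested. The adipocyte markers summed to 13862 and 12733 FPKM in the overexpressing libraries, against 13004 and 13285 FPKM in control, with 0 of 10 called. The preadipocyte and stromal markers summed to 378.1 and 355.1 FPKM in the overexpressing libraries, against 430.7 and 393.6 FPKM in control. Of the 8 tested, 6 were below 0 and 0 were called, with a median of -0.17 on the log2 scale, and their part in the members' values was not tested. The macrophage markers summed to at most 2.316 FPKM in every C3H10t1/2 library, and C1qa, C1qb, Itgam and Aif1 were listed at 0 in all 4.

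The beige KO-labelled comparison and the overexpression comparison share no library. Of the 33 members, 30 were above 0 in KO-labelled beige against WT and below 0 in overexpression against control, which is 90.9%, against 35.5% of the 9700 entries tested in both. Pcx was the 1 member the other way round, 3.03% against 17.1%. Of these 30 members, 0 were called in KO-labelled beige and 5 in overexpression. Pdk4 shows both, with 73.2 and 69.7 FPKM in KO-labelled beige against 57.3 and 59.2 FPKM in WT beige, and 54.3 and 52.9 FPKM in overexpressing C3H10t1/2 against 76.8 and 77.1 FPKM in control.

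**Figure D3:**
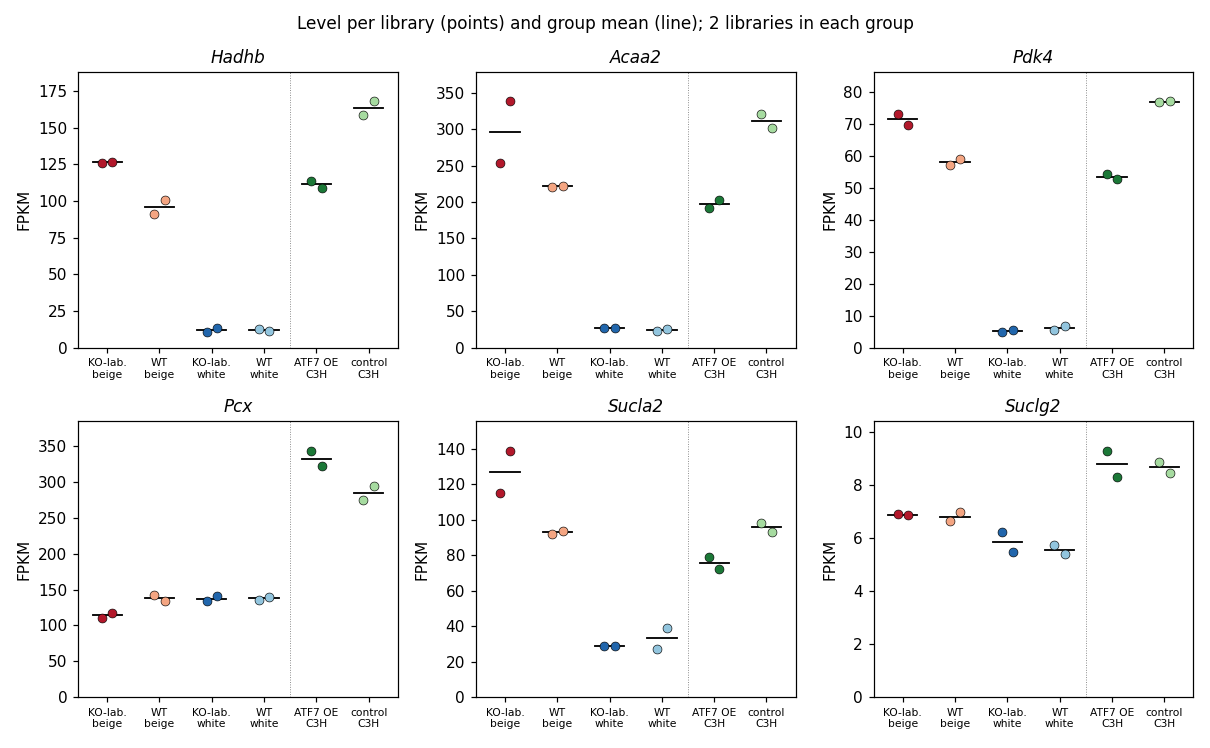
FPKM (y axis, from 0) of Hadhb, Acaa2, Pdk4, Pcx, Sucla2 and Suclg2 in the 2 libraries of each group (points) with the group mean (line). Hadhb, Acaa2 and Pdk4 are low in both white groups and lower in overexpressing than in control C3H10t1/2, while Pcx is at a like level in WT beige and both white groups and Suclg2 lies between 5.37 and 9.28 FPKM throughout.

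Levels in control C3H10t1/2 beige adipocytes are given beside those of WT beige primary cultures with no test, since the cell source differs. Both control libraries were above both WT beige libraries for 26 of 33 members and below them for 3, Acadl, Idh3a and Pdha1. The same counts over all entries were not made, so whether they are particular to the members was not tested. Acadl was at 143 and 142 FPKM in control C3H10t1/2 and at 183 and 184 FPKM in WT beige. Acadm stood the other way, at 384 and 369.7 FPKM in control C3H10t1/2 and at 178 and 187 FPKM in WT beige. The long-chain and medium-chain genes overlapped in WT beige and lay apart in control C3H10t1/2. Pcx, at 275 and 295 FPKM in control C3H10t1/2 and 142 and 134 FPKM in WT beige, was also higher in the cell line.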

How the data were processed

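RNA of 12 libraries was extracted with TRIZOL, depleted of ribosomal RNA and made into directional libraries, per the labels' protocols. The authors deposited 1 FPKM value per gene and library, and the build was mm10, per the submitters' processing notes. How reads were aligned and counted, with which annotation and filters, is not given in the sources used here. Depth is unknown because no counts were given, so no interval for counting error could be formed. An exact 0 may be a failed estimate.

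Groups were taken from the labels. Log2(FPKM + 1) was tested with limma 3.58.1 (eBayes with trend, R 4.3.3, two-sided) for entries that reached 1 FPKM in 2 or more libraries of the fit. Calls needed a p under 0.05 after Benjamini-Hochberg adjustment over all entries tested. The 8 primary libraries (11294 entries, 4 residual degrees of freedom) and the 4 C3H10t1/2 libraries (9981 entries, 2 residual degrees of freedom) were fitted apart. The pseudocount of 1 makes differences of low genes too small. The script was tested on simulated data. The deposited starts count from 0, since of 23609 names shared with RefSeq 60.7% had a start greater by 1, so 1 was added. Promoters came from RefSeq GRCm38.p6.

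The members and all lists were chosen with earlier results of these data known. The 6 called members with the largest difference in a comparison were named with full statistics, or, with fewer than 4 called, the lowest p up to 4. Of each other pathway list the rule took the 4 genes with the lowest p in WT beige against white, and 2 in other comparisons, with Atf7, Ucp1 and 6 gene pairs. In those other comparisons some of the pathway genes that the rule took were left out of the text, so the ones given there are a selection. A gene that the rule takes up is not reported here. Pcx, Suclg2, Sucla2 and other members described beyond this rule, and the genes of the pathway lists beyond it, were chosen after their values were seen. Alternatives were another pseudocount, no filter, 3 scalings, 1 fit of all libraries, a replicate block, leaving out each library, and summing loci of a symbol.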

Additional observations from a re-analysis of the deposited data

How the results depend on the processing

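Under the alternatives, 31 to 33 members were called in WT beige against white and 31 to 33 in KO-labelled beige against white, and 0 in KO-labelled against WT beige and in the interaction. In KO-labelled against WT white, Idh3a was the 1 member called under quantile normalization and the 1 called in the fit of all 12 libraries, against 0 as reported. In overexpression against control, 5 members were called as reported, 0 with no filter, 3 in the fit of all 12 libraries, 1 with a replicate block, and 0 to 1 with a library left out; the cause was not tested, except that leaving out a library leaves 1 residual degree of freedom and no filter tests more entries. Of the values of single genes, 569 kept direction and call, 37 lost the call, 8 gained it and 14 changed sign.

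Counts of all genes called moved further. KO-labelled against WT beige had 17, but 26 in the fit of all 12 libraries, 27 with a replicate block and 5 to 20 with a library left out. KO-labelled against WT white had 213, but 54 with a pseudocount of 0.1, 122 with no filter, 387 under quantile normalization, 344 without small RNA genes, 642 in the fit of all 12 libraries and 23 to 277 with a library left out. The interaction had 33, but 20 with a pseudocount of 0.1, 116 in the fit of all 12 libraries and 16 to 43 with a library left out. Overexpression against control had 149, but 22 with no filter, 88 with a replicate block and 17 to 138 with a library left out. Calls in the higher direction made up 67.1% of calls in KO-labelled against WT white, 50.4% under quantile normalization, 52.8% under median centring and 53.7% with a pseudocount of 0.1. It was 28.9% in overexpression against control, 18.2% with no filter, 45.2% without small RNA genes and 11.8% to 37.6% with a library left out.

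The sign changes were of Suclg2 and Pcx at differences near 0. In KO-labelled against WT beige, Suclg2 had 0.0121, but -0.0340 under quantile normalization, -0.0178 under median centring, -0.0323 without small RNA genes and -0.0211 to 0.0453 with a library left out. In KO-labelled against WT white, Pcx had -0.0068, but 0.0105 without small RNA genes and -0.0472 to 0.0335 with a library left out, and Suclg2 had -0.0222 to 0.1385 with a library left out. In WT beige against white, Pcx had -0.0018, but 0.1070 under median centring and -0.0472 to 0.0436 with a library left out. Suclg2 had -0.1263 to 0.0344 with a library left out in the interaction and -0.0537 to 0.0912 with a library left out in overexpression against control.

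Replicate numbers are shared across groups, and the correlation of deviations lay between -0.087 and 0.124 over the pairs of groups. Low correlations cannot exclude a shared culture, animal or batch, and the labels do not state one, so any pairing is unknown. The block cost the call of Pcx in KO-labelled beige against white (adjusted p = 0.0549) and 4 of the 5 members called in overexpression. With 2 libraries a group, none of the members' differences between KO-labelled and WT beige, up to 0.44 on the log2 scale, passed the threshold, and without counts the error from depth is unknown.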
